A study of Homo sapiens with 95 samples.

Results

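The comparison described here set AALE cells with a CRISPR knockout of FAT1 against AALE cells that received the pSpCas9-EGFP plasmid (PX458) with no guide RNA, written GFP, both grown under the DMSO vehicle. AALE is an immortalized human bronchial epithelial line, and every population in the series was derived from it. The members were the 3 FAT1 and 3 GFP wells under DMSO, 6 of the 95 wells of the series, chosen by their titles. The 3 wells of HcRed cells under DMSO, which overexpressed an empty vector with the HcRed reporter, were used to place the GFP and FAT1 levels beside those of another control. For some genes, levels under DMSO were also set beside those of the other populations. These were cells with a CRISPR knockout of CDKN2A, and cells that overexpressed NRF2 (NFE2L2), FGFR1, NRG1 or PIK3CA. The same FAT1 against GFP contrast was read in 18 further wells, 3 of each population under cigarette smoke condensate (CSC, 24 μg/ml), benzo[a]pyrene (BaP, 173 μM) and the tobacco nitrosamine NNK (490 μM). The chemicals were applied to confluent cultures.

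Expression was measured by 3′ digital gene expression (3′DGE), in which a well barcode and a unique molecular identifier (UMI) are attached at the 3′ end of polyadenylated transcripts. Total UMI counts ran from 1296129 to 1765693 in the FAT1 wells and from 1191511 to 1364142 in the GFP wells, so the FAT1 libraries were the deeper ones for the most part. The labels did not say whether a population was a clone or a pool, nor that its wells came from separate transfections, so p-values measure the spread between wells only, which may be technical. The FAT1 wells were in row B of the plate at columns 7 to 9, the GFP wells in row A at columns 4 to 6 and the HcRed wells in row A at columns 1 to 3. Genotype, transfected population and place on the plate therefore cannot be told apart. In these bulk wells, fewer cells of a kind and less RNA per cell cannot be told apart either.

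FAT1 is an atypical cadherin, a very large single-pass membrane protein with many extracellular cadherin repeats. It sits at contacts between epithelial cells, and its cytoplasmic tail is linked to actin organisation and to the Hippo pathway, the kinase cascade that restrains the transcriptional activators YAP1 and TAZ. FAT1 is often inactivated in squamous tumours, among them those of the lung. The human gene lies at chr4:187508948-187647876 on the minus strand of hg19.

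The targeted gene was lower in the FAT1 wells, although its level was low in GFP wells too. FAT1 counts were 0, 6 and 3 in the FAT1 wells and 9, 14 and 8 in the GFP wells. As levels, in counts relative to library size scaled by trimmed mean of M values (TMM CPM), these were 0, 3.5 and 2.45 against 7.38, 11.4 and 5.73. The wells of the 2 groups did not overlap, and the log2 fold change was -2.47 (SE 0.62, adjusted p = 0.00222, limma). Without FAT1 replicate 1, the well with no FAT1 count, the log2 fold change was -1.27 and the adjusted p 0.107. A 3′ count reads transcript abundance, not the edited site, so it does not check whether the protein was lost.

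Across the 8 populations under DMSO, the mean FAT1 level was 1.98 TMM CPM in FAT1 cells, 8.16 in GFP cells, 11.8 in NRG1 cells, 16.1 in FGFR1 cells, 18.9 in HcRed cells, 19.3 in NRF2 cells, 23.0 in PIK3CA cells and 23.6 in CDKN2A cells. The ranges of neighbouring populations in this order overlapped, except for FAT1 and GFP cells. The CDKN2A cells, the other CRISPR knockout, thus had the highest mean. FAT1 was lower in GFP than in HcRed cells (log2 fold change -1.23, SE 0.3, adjusted p = 0.0039, limma), and lower again in FAT1 than in HcRed cells (log2 fold change -3.69, SE 0.6, adjusted p = 2.35e-06, limma). In the wells with the other chemicals FAT1 was again lower than in GFP wells (log2 fold change -1.44, SE 0.36, adjusted p = 0.00142, limma). There the FAT1 cells' wells ranged from 0 TMM CPM in a BaP well to 4.28 under CSC, and the GFP wells from 4.24 under CSC to 10.8 under NNK.

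**Figure D1:**
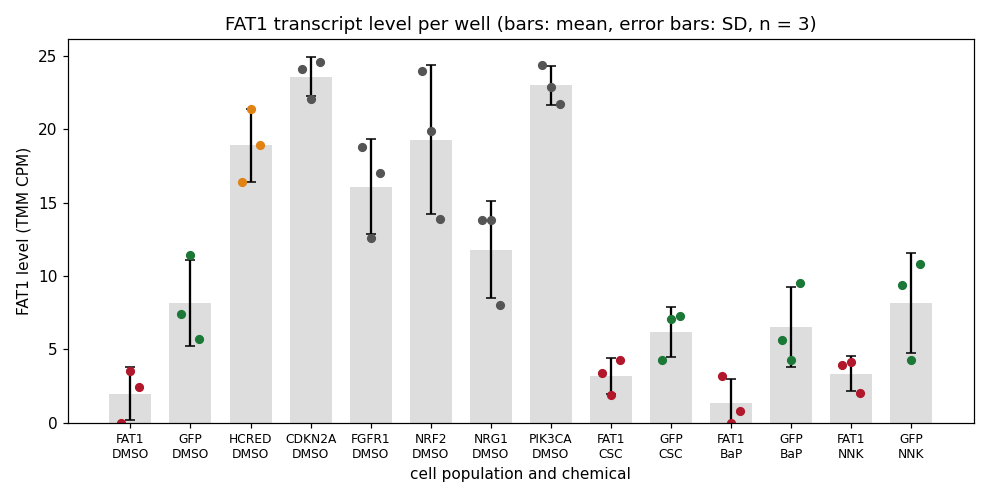
FAT1 transcript level in TMM CPM (y axis) per well for the 8 populations under DMSO and for FAT1 and GFP cells under CSC, BaP and NNK (x axis); bars are means, error bars SD and points single wells, n = 3. FAT1 cells under DMSO had the lowest mean of the 8 DMSO populations, 1.98, GFP cells the next, 8.16, and the other 6 populations lay between 11.8 and 23.6.

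Of 11142 genes with a mean count over 1 in the 6 wells, 1572 differed between FAT1 and GFP cells at an adjusted p-value under 0.05 (14.1%), 723 of them higher (6.49%) and 849 lower (7.62%) in FAT1 cells. The median log2 fold change of all tested genes was -0.01. The FAT1 and GFP wells did not overlap for 3214 of the 11142 genes (28.8%). DESeq2, which took its own size factors, called 856 genes, 408 higher and 448 lower. Scaling by library totals in place of TMM factors turned the share of higher genes from 46.0% to 35.9% of those called. Abundant genes passed more often: 23.9% of the 1395 genes with a mean count over 100 were higher and 24.4% lower, and of the 224 with a mean count over 1000 41.5% were higher and 32.1% lower. The counts for lists of abundant genes below are to be read against these shares.

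The genes with the largest rises were led by CCND2, which encodes the G1 regulator cyclin D2. CCND2 stood at 15.2, 14.6 and 18.8 TMM CPM in FAT1 wells and at 0, 0.813 and 0 in GFP wells. The GFP wells held 1 CCND2 count in all against 72, a ratio of 60.8 (95% counting interval 10.6 to 2430), with an adjusted p of 1.24e-06 in limma. HcRed wells held 18, 22.1 and 16.6, so the GFP level was the one that stood apart. CDKN2A cells were as low as GFP cells, with a mean of 0.375, whereas the other 6 populations had means from 13.9 to 39.4.

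Beside interferon-induced genes, the largest rises also included SMARCA1 and GALM. SMARCA1, an ATPase of ISWI chromatin remodelling complexes, was at 20.3, 11.1 and 18 TMM CPM in FAT1 wells and at 2.46, 0.813 and 1.43 in GFP wells (log2 fold change 3.11, SE 0.56, adjusted p = 1.02e-05, limma), with HcRed at 9.02, 12.4 and 5.3. GALM, the mutarotase that interconverts the anomers of galactose, was at 21.5, 14 and 18 against 1.64, 0.813 and 3.58 (log2 fold change 3.01, SE 0.52, adjusted p = 4.14e-06, limma). For both genes the HcRed mean lay between the other populations.

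Interferon-stimulated genes were the list with the highest median difference. They are induced when interferon receptors or cytosolic nucleic acid sensors activate their transcription factors, and they encode antiviral proteins such as the RNA-binding IFIT family. Of the 40 listed genes, 32 were tested, 15 were higher and 0 lower in FAT1 cells, and 17 did not pass. Over all genes tested, 6.49% were higher and 7.62% lower. Their median log2 fold change was 1.08, and it was still 1.08 with IFI44L, a gene with no count in GFP wells, set at the bound that a floor of 3 counts over the group gives.

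The promoters of 4 of the genes with the largest rises are shown because they hold the sequence through which this family is known to be switched on. The 250 bases before the RefSeq transcription start are given 5′ to 3′ on the gene's strand. Each matched GRCh37, the hg19 assembly, at 1 place, on the plus strand. Capitals mark the core of the interferon-stimulated response element, searched as GAAANNGAAA and its reverse complement TTTCNNTTTC, with overlapping matches merged. The windows are chr10:91152130-91152379 for IFIT1, chr10:91087504-91087753 for IFIT3, chr1:79115224-79115473 for IFI44 and chr14:94576832-94577081 for IFI27.
IFIT1: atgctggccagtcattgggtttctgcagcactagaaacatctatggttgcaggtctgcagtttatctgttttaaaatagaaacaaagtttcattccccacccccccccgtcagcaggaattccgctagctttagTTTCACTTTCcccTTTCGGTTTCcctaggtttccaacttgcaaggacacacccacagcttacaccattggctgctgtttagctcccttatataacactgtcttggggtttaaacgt
IFIT3: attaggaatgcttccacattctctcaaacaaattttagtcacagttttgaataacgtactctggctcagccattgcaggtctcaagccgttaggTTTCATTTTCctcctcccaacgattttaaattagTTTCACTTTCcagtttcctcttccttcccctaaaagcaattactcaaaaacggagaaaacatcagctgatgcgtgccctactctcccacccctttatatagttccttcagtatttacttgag
IFI44: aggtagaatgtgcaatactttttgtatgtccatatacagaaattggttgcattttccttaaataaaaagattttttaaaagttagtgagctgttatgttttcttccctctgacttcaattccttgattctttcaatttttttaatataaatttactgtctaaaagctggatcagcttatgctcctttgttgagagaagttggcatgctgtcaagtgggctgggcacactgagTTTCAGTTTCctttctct
IFI27: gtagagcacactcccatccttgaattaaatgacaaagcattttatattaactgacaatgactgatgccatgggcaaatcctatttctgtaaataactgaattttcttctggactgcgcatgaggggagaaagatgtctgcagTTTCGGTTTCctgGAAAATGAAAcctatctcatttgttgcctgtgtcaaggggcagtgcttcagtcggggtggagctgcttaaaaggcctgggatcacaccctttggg

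Of the 15 genes that were higher, 12 had a promoter in the RefSeq table used and 10 of these held the motif (83.3%). Of the 17 tested members that did not pass, 14 had one and 6 held the motif (42.9%). Over all 27305 promoters of the same length the share was 3.07%. The list was chosen as genes known to respond to interferon, so a share above that of all promoters follows from the choice. The difference between members that passed and those that did not was not tested. A match is a description of the sequence and does not show binding.

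IFIT2, an RNA-binding antiviral protein, had the smallest adjusted p of the list. Its level was 122, 109 and 104 TMM CPM in FAT1 wells, 9.02, 13.8 and 10 in GFP wells and 19.7, 20.7 and 20.4 in HcRed wells. The 3 populations did not overlap, and the FAT1 against GFP log2 fold change was 3.32 (SE 0.24, adjusted p = 2.13e-22, limma). Among the 8 populations its mean was highest in FAT1 cells, at 112, and FGFR1 cells followed with 46.2.

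IFIT1 and IFIT3, whose proteins form complexes with IFIT2, moved alike. IFIT1 was at 50.7, 57.7 and 47.4 TMM CPM in FAT1 wells, 10.7, 4.88 and 4.3 in GFP wells and 12.3, 12.4 and 10.6 in HcRed wells (FAT1 against GFP log2 fold change 3.03, SE 0.31, adjusted p = 7.69e-14, limma). IFIT3 was at 68.5, 52.5 and 66.1 in FAT1 wells, 7.38, 14.6 and 10.7 in GFP wells and 13.1, 18.6 and 13.6 in HcRed wells (log2 fold change 2.49, SE 0.25, adjusted p = 2.74e-14, limma). The HcRed wells of both genes lay near those of GFP and far below those of FAT1.

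IFI44, an interferon-induced gene of the cytoplasm, was at 55.8, 64.2 and 74.3 TMM CPM in FAT1 wells, 6.56, 7.32 and 4.3 in GFP wells and 13.1, 12.4 and 9.84 in HcRed wells (log2 fold change 3.35, SE 0.31, adjusted p = 5.14e-16, limma). IFI27, which encodes a small hydrophobic mitochondrial protein, had another order. It was at 41.8, 58.9 and 49 in FAT1 wells, 9.84, 1.63 and 4.3 in GFP wells and 33.6, 35.2 and 43.1 in HcRed wells (log2 fold change 3.44, SE 0.37, adjusted p = 7.82e-13, limma). The HcRed wells of IFI27 thus overlapped the FAT1 wells, with their mean between both groups, and the FAT1 against HcRed log2 fold change was 0.44.

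Of the other members, 3 are named here after their values were seen. IFI44L was at 6.34, 4.67 and 4.08 TMM CPM in FAT1 wells with no count in GFP wells, at least 6.47-fold higher. ISG15, a ubiquitin-like modifier, was at 22.2, 22.2 and 26.1 against 4.1, 7.32 and 5.01 (log2 fold change 2.03, SE 0.34, adjusted p = 1.31e-06, limma). IFITM3, a membrane protein that blocks viral entry, was at 39.9, 45.5 and 41.6 against 11.5, 5.69 and 9.31, and its HcRed wells, at 28.7, 40.7 and 43.9, overlapped the FAT1 wells. IFITM2 and IFITM3 are close copies, so reads could be split between them. IRF9, a transcription factor of the pathway, had a log2 fold change of 0.73 and did not pass.

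Set beside HcRed, the mean of the HcRed wells lay between the GFP and FAT1 wells for 10 of the 15 interferon-stimulated genes, on the FAT1 side for 3 and on the GFP side for 2. FAT1 cells exceeded HcRed cells for 9 listed genes with 0 lower (median log2 fold change 0.31), against 6.84% higher and 6.47% lower over all genes tested. GFP cells were below HcRed cells for 9 with 1 higher (median -0.79), against 4.86% lower and 5.93% higher over all genes. These comparisons share wells with the main one. In the wells with CSC, BaP or NNK, which share none, 18 of 34 tested members were higher in FAT1 cells, 1 was lower and the median was 1.22. Over all genes tested in those wells 13% were higher and 14.3% lower.

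**Figure D2:**
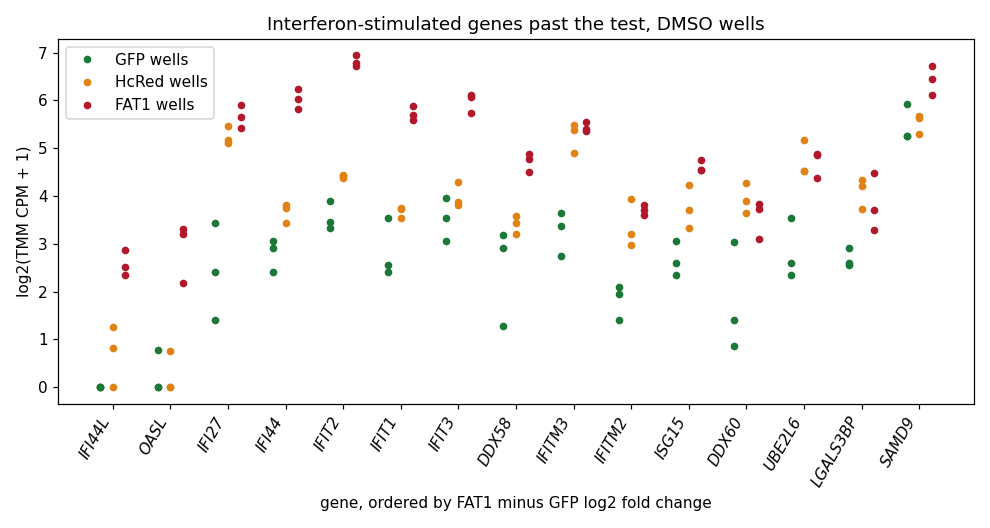
Level of each of the 15 interferon-stimulated genes that passed the test (x axis) as log2(TMM CPM + 1) (y axis), 1 point per well for GFP, HcRed and FAT1 cells under DMSO, n = 3 wells each. Only members that passed as higher are shown, so FAT1 wells lying above GFP wells for every gene follows largely from that choice. The wells of 28.8% of all genes tested did not overlap. The HcRed mean lay between FAT1 and GFP wells for 10 of the 15.

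Keratins and squamous differentiation genes had more lower than higher members. Keratins are the intermediate filaments of epithelia, with KRT5 and KRT14 paired in basal cells, and genes of squamous differentiation encode cornified-envelope proteins, serpins and kallikreins. Of 13 tested keratins, 5 were lower and 2 higher in FAT1 cells (median log2 fold change -0.45), against 7.62% lower over all genes tested and 24.4% lower over genes with a mean count over 100. Of 21 tested squamous differentiation genes, 8 were lower and 1 higher, with a median of -1.02 that was -0.56 when only genes with a mean count over 10 were kept.

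KRT14 was at 5.7, 9.92 and 4.9 TMM CPM in FAT1 wells, 52.5, 74 and 66.6 in GFP wells and 71.4, 85.6 and 74.1 in HcRed wells (FAT1 against GFP log2 fold change -3.19, SE 0.28, adjusted p = 8.22e-17, limma). FAT1 cells had the lowest mean of the 8 populations, 6.84, the next being NRG1 cells at 29.7. KRT6A, a keratin of activated epithelium, was at 88.7, 77.6 and 98 against 151, 189 and 163 (log2 fold change -0.95, SE 0.11, adjusted p = 3.26e-11, limma), with HcRed at 340, 352 and 311. KRT17 and KRT5 were lower with log2 fold changes of -0.61 and -0.51, and HcRed lay on the GFP side for all 5 lower keratins. The 2 keratins that were higher, KRT18 and KRT19, belong to simple epithelia and had log2 fold changes of 0.52 and 0.39. KRT14, KRT16 and KRT17, like KRT6A and its copies, share much sequence, so their split is uncertain.

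SERPINB2, an inhibitor of plasminogen activators, was at 1.27, 1.17 and 1.63 TMM CPM in FAT1 wells, 9.02, 20.3 and 17.2 in GFP wells and 6.56, 7.59 and 8.32 in HcRed wells (log2 fold change -3.22, SE 0.56, adjusted p = 3.53e-06, limma). CSTA, the cysteine protease inhibitor cystatin A, was at 373, 391 and 407 against 799, 795 and 760 (log2 fold change -1.02, SE 0.065, adjusted p = 3.16e-25, limma), and HcRed lay between at 622, 618 and 655. SERPINB1 and CD24 were lower with log2 fold changes of -1.22 and -0.66. TP63, the transcription factor that maintains basal cells, had a log2 fold change of 0.11 and did not pass.

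Of the 10 markers chosen for basal airway epithelium, 9 were tested. In FAT1 cells 6 were lower and 0 higher, against 7.62% lower over all genes tested and 24.4% at a mean count over 100. The summed level of these markers ran from 605 to 661 TMM CPM in FAT1 wells and from 927 to 1040 in GFP wells. Many markers of other cell types had no count: all 7 club and goblet genes found in the files had no count in the 6 wells, nor had 6 of 8 alveolar, 6 of 8 fibroblast, 5 of 8 endothelial and 6 of 10 leukocyte markers. Summed alveolar markers reached 0.816 TMM CPM in FAT1 and 0.82 in GFP wells, summed fibroblast markers 2.33 and 2.46 and summed endothelial markers 3.27 and 1.64. Summed leukocyte markers were 12.7 to 15.7 TMM CPM in FAT1 and 9.84 to 14.3 in GFP wells, with CD3E, CD3D, LAPTM5 and TYROBP among those at 0. Summed ciliated-cell markers were 28.6 to 38 TMM CPM in FAT1 wells and 22.9 to 23.8 in GFP wells. These ranges did not overlap, but neither did the wells of 28.8% of all single genes tested. FOXJ1 and TPPP3 were at 0 in all 6 wells, and none of the 3 tested ciliated markers passed the test. The part of these cell types in the results was not tested.

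The genes with the largest falls also included FGFBP1, IGFL1, ECM2 and SLC43A3. FGFBP1, a carrier that releases fibroblast growth factors from matrix, was at 93.2, 115 and 99.6 TMM CPM in FAT1 wells, 371, 434 and 380 in GFP wells and 272, 221 and 253 in HcRed wells (log2 fold change -1.95, SE 0.098, adjusted p = 2.03e-32, limma). IGFL1, an insulin growth factor-like protein, was at 2.54, 2.33 and 6.53 against 28.7, 28.5 and 36.5 (log2 fold change -3.17, SE 0.38, adjusted p = 3.65e-11, limma). ECM2 was at 3.17, 5.25 and 2.45 in FAT1 wells, 24.6, 18.7 and 10 in GFP wells and 6.56, 3.45 and 3.78 in HcRed wells, so its GFP level was the one apart. SLC43A3, a purine nucleobase transporter, was at 2.54, 1.75 and 2.45 against 16.4, 16.3 and 14.3 in GFP wells and 13.9, 16.6 and 11.3 in HcRed wells.

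The long non-coding RNAs LINC00707 and SFTA1P were also among the largest falls. LINC00707 was at 0, 1.75 and 0.816 TMM CPM in FAT1 wells, 12.3, 22.8 and 14.3 in GFP wells and 20.5, 18.6 and 18.9 in HcRed wells (log2 fold change -4.14, SE 0.7, adjusted p = 2.4e-06, limma). SFTA1P was at 14.6, 29.7 and 31.8 in FAT1 wells, 86.9, 107 and 96.7 in GFP wells and 27.1, 22.8 and 19.7 in HcRed wells (log2 fold change -2.03, SE 0.18, adjusted p = 4.32e-17, limma). HcRed was thus with GFP for LINC00707 and with FAT1 for SFTA1P.

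Of 12 tested S100 genes, which encode small calcium-binding proteins of epithelia, 5 were lower and 2 higher (median log2 fold change -0.53). Over all genes tested 7.62% were lower and 6.49% higher, and over those with a mean count over 1000 32.1% and 41.5%. S100A2 was at 2901, 3308 and 3363 TMM CPM in FAT1 wells and 5053, 5446 and 5135 in GFP wells (log2 fold change -0.73, SE 0.032, adjusted p = 4.2e-37, limma). S100A10 and S100A11, partners of annexins, had log2 fold changes of -0.55 and -0.77, and ANXA2, the annexin that binds S100A10, had one of -0.69 (SE 0.033, adjusted p = 2.65e-34, limma). For ANXA2 the wells were at 2717, 3046 and 2928 in FAT1 cells, 4408, 4628 and 4825 in GFP cells and 3588, 3595 and 3770 in HcRed cells. S100A6 was higher (log2 fold change 0.16), a call that was lost in the single fit over all DMSO wells (adjusted p = 0.0911, limma).

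Few genes listed for the FAT1 pathway passed the test. Of 31 tested genes for FAT cadherins, Hippo kinases and YAP output, 1 was lower, FAT1, and 1 higher, CRIM1, a membrane protein induced by YAP, against 7.62% lower and 6.49% higher over all genes tested. CRIM1 was at 20.9, 27.4 and 20.4 TMM CPM in FAT1 wells and 11.5, 13.8 and 15 in GFP wells (log2 fold change 0.74, SE 0.25, adjusted p = 0.0309, limma), with HcRed on the FAT1 side, and it did not pass with DESeq2. The direct YAP targets CTGF and CYR61 had log2 fold changes of -0.26 and 0.33, YAP1 one of -0.08, FAT2 one of 0.58 and LATS2 one of -0.03, and none of these passed. The list median was -0.08, and it was 0.14 with DESeq2 and 0.12 with edgeR. In the CSC, BaP and NNK wells 5 of 31 were higher and 1 lower, and against HcRed 4 were lower and 0 higher in FAT1 cells.

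Cell adhesion genes gave both directions. Of 28 tested junction genes, 3 were higher and 2 lower (median log2 fold change -0.01), against 14.1% called in either direction over all genes tested. PPL, the desmosomal plakin periplakin, was at 19.6, 19.8 and 20.4 TMM CPM in FAT1 wells, 9.02, 8.94 and 9.31 in GFP wells and 23, 30.4 and 18.2 in HcRed wells (log2 fold change 1.08, SE 0.28, adjusted p = 0.00338, limma). PKP2 and EPCAM were higher with log2 fold changes of 1.08 and 0.62, and TJP1, the tight-junction scaffold ZO-1, was lower with -0.61; none of these 3 passed with DESeq2. The cadherin genes CDH1 and CDH3 had log2 fold changes of -0.4 and -0.46 and did not pass. Of 25 tested integrin and basement membrane genes, 5 were lower and 0 higher (median -0.22). The lower share was 7.62% over all genes tested and 24.4% over those with a mean count over 100. ITGA6, a subunit of the hemidesmosome integrin, was at 31.1, 26.8 and 29.4 against 45.9, 61.8 and 46.5 (log2 fold change -0.82, SE 0.17, adjusted p = 0.000216, limma). DST, COL17A1 and LAMB3 of the same structure had log2 fold changes of -0.66, -0.69 and -0.53, although LAMB3 did not pass with DESeq2. HcRed lay on the FAT1 side for COL17A1, with log2 fold changes of -0.03 for FAT1 and 0.64 for GFP against HcRed. It lay between for DST and on the GFP side for the other 3 lower genes.

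Of 31 tested actin cytoskeleton genes, 10 were lower and 1 higher (median log2 fold change -0.31). The lower share was 24.4% over genes with a mean count over 100 and 32.1% over 1000, so the lower count was near both. The higher shares of the same abundant genes were 23.9% and 41.5%. TMSB4X, which sequesters actin monomers, was at 2080, 2131 and 2289 TMM CPM in FAT1 wells, 4192, 3948 and 4001 in GFP wells and 2876, 2874 and 3126 in HcRed wells (log2 fold change -0.92, SE 0.034, adjusted p = 4.07e-42, limma). ACTB was at 503, 604 and 548 against 811, 905 and 859 (log2 fold change -0.65, SE 0.063, adjusted p = 4.2e-15, limma), with HcRed above both at 1166, 1167 and 1057. TMSB10 and ARPC2, a subunit of the branching complex, had log2 fold changes of -0.31 and -0.77.

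Few mesenchymal genes were measured. Of 10 tested, 2 were higher and 0 lower (median log2 fold change 0.38), against 6.49% higher over all genes tested. FN1, fibronectin, was at 20.3, 22.2 and 24.5 TMM CPM in FAT1 wells, 9.84, 6.51 and 5.01 in GFP wells and 39.4, 61.4 and 42.4 in HcRed wells (log2 fold change 1.64, SE 0.31, adjusted p = 2.68e-05, limma). FN1 was therefore higher than in GFP cells and lower than in HcRed cells, where the log2 fold change was -1.07, and the GFP mean of 7.12 was the lowest of the 8 populations. TGFBI and the protease inhibitor TIMP1 showed the same order, with log2 fold changes of 0.38 and 0.25 against GFP and of -1.02 and -1.46 against HcRed. TGFBI passed at an adjusted p of 0.0496 only, and lost its call in 9 of 18 alternative settings.

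Ribosomal protein genes were higher for the most part. Of 85 tested, 60 were higher and 11 lower, against 41.5% higher and 32.1% lower among all genes with a mean count over 1000, and their median log2 fold change was 0.29. RPL26 was at 9735, 10352 and 11022 TMM CPM in FAT1 wells, 5415, 5450 and 5285 in GFP wells and 6686, 6558 and 6673 in HcRed wells (log2 fold change 0.93, SE 0.025, adjusted p = 4.91e-54, limma). RPL12 was at 9008, 9407 and 9817 in FAT1 wells, 5794, 5722 and 5590 in GFP wells and 5592, 5481 and 5833 in HcRed wells (log2 fold change 0.71, SE 0.023, adjusted p = 2.05e-47, limma). RPS15A, RPS6 and RPL41 had log2 fold changes of 0.83, 0.46 and 0.43. HcRed lay on the GFP side for 35 of the 60 higher genes, between for 17 and on the FAT1 side for 7. With library totals in place of TMM factors the list median was 0.23. With ribosomal protein genes left out of the scaling, 1583 genes of all kinds were called, against 1572 in the main fit, which is not a count of this list. These genes have many processed copies in the genome, so their levels carry that uncertainty.

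Other parts of the translation machinery were split. Of 38 tested translation factors, 10 were higher and 11 lower (median log2 fold change 0.06). Among all genes with a mean count over 1000, 41.5% were higher and 32.1% lower. EEF1A1, the main elongation factor, was at 12794, 12651 and 13487 TMM CPM in FAT1 wells and 10266, 9867 and 9620 in GFP wells (log2 fold change 0.37, SE 0.018, adjusted p = 3.82e-34, limma), and NACA, EIF3E and EIF4B had log2 fold changes of 0.4, 0.45 and 0.64. Host transcripts of small nucleolar RNAs, which like ribosomal proteins carry 5′ oligopyrimidine tracts, stood in the list of long non-coding RNAs. That list also holds other transcripts, such as MALAT1. Of its 18 tested members 8 were higher and 1 was lower (median 0.49), against 6.49% and 7.62% over all genes tested. The share was 41.5% higher over genes with a mean count over 1000. The lower member was DANCR, named after its values were seen. GAS5 was at 1834, 1670 and 1744 in FAT1 wells, 938, 920 and 888 in GFP wells and 685, 707 and 738 in HcRed wells (log2 fold change 0.92, SE 0.05, adjusted p = 2.74e-30, limma). SNHG5, ZFAS1 and SNHG8 had log2 fold changes of 0.59, 0.75 and 0.84. The GAS5 mean of FAT1 cells, 1749, was the highest of the 8 populations, and NRG1 cells came next at 972.

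Metallothioneins, small cysteine-rich proteins that bind zinc, copper and cadmium, had more lower than higher members. Of 10 tested, 4 were lower, 1, MT1A, was higher and 5 did not pass (median log2 fold change -0.58), against 7.62% lower over all genes and 32.1% over those with a mean count over 1000. The 4 lower genes lie on 16q, an arm whose median was -0.25. MT2A was at 5802, 8122 and 7191 TMM CPM in FAT1 wells, 14412, 16451 and 14719 in GFP wells and 21813, 20206 and 21856 in HcRed wells (log2 fold change -1.13, SE 0.034, adjusted p = 2.49e-49, limma). The FAT1 mean of 7038 was the lowest of the 8 populations, where the others ran from 15194 to 32856. MT1E was at 1053, 1231 and 1205 against 1917, 1997 and 1794 (log2 fold change -0.72, SE 0.048, adjusted p = 1.9e-24, limma), and MT1X had a log2 fold change of -0.37. MT1G was lower too, with a log2 fold change of -1.34, but its HcRed wells at 10.7, 7.59 and 6.81 sat with the FAT1 wells at 8.24, 10.5 and 8.16. Copies of this family are alike in sequence, so counts could be split between them. Zinc transporters gave 1 higher gene, SLC39A6, and 1 lower, SLC39A7, of 15 tested, against 6.49% higher and 7.62% lower over all genes. SLC39A6 lost its call in 7 of 18 alternative settings, and SLC39A7 in 4 of 16, among them leaving out any 1 of the FAT1 wells.

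The promoter of MT2A is shown because this gene had the smallest adjusted p among those that were lower, and its family is switched on by zinc through a short repeated element. It is the RefSeq window chr16:56642246-56642495 of GRCh37, plus strand, with 7 matches in capitals to the metal response element core, searched as TGCACNC and TGCGCNC and on the other strand. Of all 27305 promoters, 24.7% held at least 1 match.
MT2A: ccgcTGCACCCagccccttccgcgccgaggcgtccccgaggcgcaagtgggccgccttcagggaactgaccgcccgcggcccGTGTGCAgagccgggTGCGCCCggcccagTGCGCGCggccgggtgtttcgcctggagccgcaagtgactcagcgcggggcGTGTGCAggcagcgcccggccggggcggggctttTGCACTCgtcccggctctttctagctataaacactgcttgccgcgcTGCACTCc

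Genes of the amino acid response, which the transcription factor ATF4 drives when amino acids run short, were listed with those of endoplasmic reticulum stress. Of 32 tested, 7 were lower and 0 higher in FAT1 than in GFP cells (median log2 fold change -0.2), and HcRed lay on the FAT1 side for 6 of the 7. Over all genes tested 7.62% were lower, and over those with a mean count over 100 24.4%. The lower count was thus near that of abundant genes, of which 23.9% were higher. Against HcRed, 4 of the listed genes were lower and 5 higher in FAT1 cells. PSAT1, an enzyme of serine synthesis, was at 105, 90.4 and 85.7 TMM CPM in FAT1 wells, 331, 316 and 311 in GFP wells and 94.3, 91.8 and 107 in HcRed wells (log2 fold change -1.78, SE 0.1, adjusted p = 8.93e-29, limma). ASNS, asparagine synthetase, was at 134, 128 and 139 in FAT1 wells, 334, 307 and 306 in GFP wells and 112, 119 and 122 in HcRed wells (log2 fold change -1.25, SE 0.092, adjusted p = 1.6e-21, limma). The GFP means of PSAT1 and ASNS, 319 and 316, were the highest of the 8 populations, with NRG1 cells next at 147 and 148. MTHFD2 and HERPUD1 had log2 fold changes of -0.39 and -1.08. The chaperone gene HSPA5 of the unfolded protein response had one of 0.08 and did not pass.

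Sterol and fatty acid synthesis had 10 lower and 0 higher genes of 31 tested (median log2 fold change -0.46). Over all genes tested 7.62% were lower. The lower share was 24.4% over genes with a mean count over 100 and 32.1% over 1000, so the lower count was near both. The higher shares of the same abundant genes were 23.9% and 41.5%. The list median was -0.25 when only genes with a mean count over 10 were kept. IDI1, an isomerase of the mevalonate pathway, was at 349, 302 and 336 TMM CPM in FAT1 wells, 599, 740 and 733 in GFP wells and 594, 566 and 610 in HcRed wells (log2 fold change -1.09, SE 0.073, adjusted p = 7.99e-24, limma). EBP, FDFT1 and MSMO1 had log2 fold changes of -0.86, -0.67 and -0.79, and HcRed lay between for EBP, on the FAT1 side for FDFT1 and on the GFP side for MSMO1.

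Of 49 tested cell cycle and replication genes, 13 were lower and 1, CCND2, was higher (median log2 fold change -0.25), against 24.4% lower over genes with a mean count over 100. The lower count was thus near that of abundant genes, of which 23.9% were higher. TUBB, a tubulin, was at 666, 756 and 753 TMM CPM in FAT1 wells and 1374, 1544 and 1518 in GFP wells (log2 fold change -1.04, SE 0.054, adjusted p = 2.27e-31, limma). HMGB2 and STMN1 had log2 fold changes of -0.89 and -0.51. TOP2A, the replication-linked topoisomerase, was at 342, 387 and 313 in FAT1 wells, 536, 495 and 533 in GFP wells and 305, 327 and 315 in HcRed wells (log2 fold change -0.59, SE 0.073, adjusted p = 1.64e-10, limma). The proliferation marker MKI67 had a log2 fold change of 0.26 and did not pass.

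Targets of p53 gave 3 higher and 0 lower genes of 21 tested (median log2 fold change 0.23). The higher share was 6.49% over all genes tested and 23.9% over those with a mean count over 100. MDM2, the ubiquitin ligase that restrains p53, was at 59.6, 53.1 and 45.7 TMM CPM in FAT1 wells, 32, 26 and 22.2 in GFP wells and 48.4, 29 and 40.1 in HcRed wells (log2 fold change 0.99, SE 0.18, adjusted p = 1.57e-05, limma). The death receptor gene FAS and TRIAP1 had log2 fold changes of 0.75 and 0.53, while CDKN1A, the classical p53 target, had one of -0.28 and did not pass. NRF2 targets, the antioxidant genes, gave 7 lower and 2 higher of 30 (median -0.43). The lower share was 7.62% over all genes and 24.4% over those with a mean count over 100. The lower count was thus near that of abundant genes, of which 23.9% were higher. NQO1, a quinone reductase, was at 75.4, 75.8 and 70.2 against 163, 194 and 165 (log2 fold change -1.24, SE 0.12, adjusted p = 6.67e-16, limma), with HcRed at 151, 168 and 158. PRDX1 and FTH1 had log2 fold changes of -0.32 and -0.42. NQO1 was also the 1 AHR target of 6 tested that passed.

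Immune genes outside the interferon list gave both directions. Of 19 tested MHC class I presentation genes, 2 were higher and 2 lower (median log2 fold change -0.13), against 14.1% called in either direction over all genes tested. PSMB9, the inducible proteasome subunit, was at 10.8, 14 and 9.8 TMM CPM in FAT1 wells and 4.1, 6.51 and 2.15 in GFP wells (log2 fold change 1.5, SE 0.41, adjusted p = 0.00533, limma). TAPBP, tapasin, was lower at 45.6, 43.2 and 42.5 against 98.4, 76.4 and 74.5 (log2 fold change -0.92, SE 0.15, adjusted p = 5.32e-07, limma). Of 13 tested chemokine, cytokine and NF-kB feedback genes, TSLP and BIRC3 were higher, with log2 fold changes of 1.08 and 0.77, and IL1RN and IL18 lower, with -1.91 and -0.47. HcRed lay on the GFP side for all 4, and TSLP and BIRC3 did not pass with DESeq2. Of 26 tested immediate early and ERK feedback genes, DUSP1 and AREG were higher and 0 lower, against 6.49% higher over all genes tested. HcRed lay on the FAT1 side for DUSP1 and AREG, and neither passed with DESeq2. FAT1 against HcRed gave log2 fold changes of -0.62 for DUSP1 and -0.68 for AREG. In that comparison 7 listed genes were lower and 0 higher, against 6.47% and 6.84% over all genes tested.

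Lists of energy metabolism and protein turnover were split. Over all genes tested 6.49% were higher and 7.62% lower, and over those with a mean count over 100 23.9% and 24.4%. Of 33 tested glycolysis and hypoxia genes, 5 were higher and 6 lower (median log2 fold change -0.13): LDHB rose by a log2 fold change of 0.48, and PGK1, PKM and ENO1 had -0.68, -0.73 and -0.38. Of 79 oxidative phosphorylation subunits, 16 were higher and 21 lower (median -0.01), with COX7B and ATP5I at -0.67 and -0.64. Of 37 proteasome subunits, 6 were higher and 7 lower (median 0.06). Of 26 heat shock proteins and chaperonins, 3 were higher and 5 lower (median 0.02), with HSP90AB1 at -0.73 and HSPB1 at 0.98. Of 18 tested proteases and inhibitors, TIMP1 was higher and CTSC, the protease cathepsin C, lower (median -0.02), and CTSC lost its call in 8 of 17 alternative settings.

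**Figure D3:**
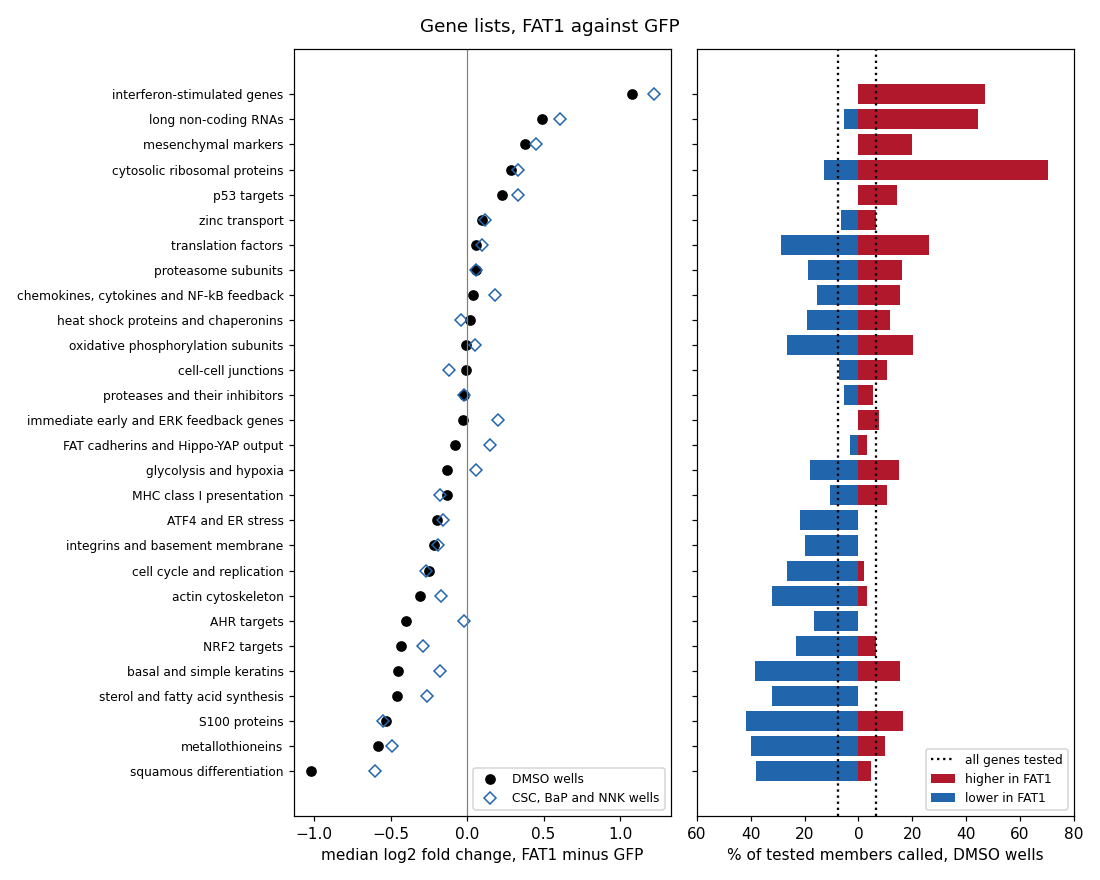
Left, median log2 fold change, FAT1 minus GFP (x axis), of each gene list (y axis) in DMSO wells (filled) and in CSC, BaP and NNK wells (open); right, the percentage of tested members higher (red) and lower (blue) in FAT1 cells under DMSO (x axis), with dotted lines for all genes tested. Interferon-stimulated genes had the highest median, 1.08, and squamous differentiation genes the lowest, -1.02.

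The wells with CSC, BaP and NNK gave the same contrast in libraries that the DMSO comparison did not use, with total counts from 1273724 to 1895735 in FAT1 and from 893754 to 1293174 in GFP wells. There 3030 of 11087 genes passed (27.3%), 1440 higher (13%) and 1590 lower (14.3%) in FAT1 cells. Of the 1572 genes called under DMSO, 1563 were tested, 1537 had the same direction (98.3%) and 1309 passed in the same direction. Among the 9185 genes tested in both that did not pass under DMSO, 67.6% had the same direction. The contrast rests on the same transfected populations and the same plate columns, so it repeats the wells and not the knockout. IFIT2, KRT14, MT2A and RPL26 had log2 fold changes of 2.76, -2.67, -0.85 and 0.97 there, and CCND2 one of 3.97.

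The 3 genes that passed in both with opposite directions were FAM178A, MPRIP and the nuclear RNA MALAT1, which are named after their values were seen. Their log2 fold changes under DMSO were 0.63, -0.76 and 0.14, and in the other wells -0.48, 0.53 and -0.14.

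HcRed levels were set beside those of the genes called. For 545 of the 1570 called genes that could be placed (34.7%) the HcRed mean lay on the GFP side, for 392 (25.0%) it lay on the FAT1 side, and for 577 (36.8%) it lay between. The wells of the other 56 overlapped under the scaling of the 9 wells. A side says only where the HcRed mean fell, and it includes genes for which HcRed itself was the farthest. TIMP1, on the FAT1 side, had a log2 fold change of 0.25 between FAT1 and GFP, but of -1.46 for FAT1 and -1.72 for GFP against HcRed. KRT14, LINC00707, MT2A, RPL12 and GAS5 were on the GFP side, CCND2, ECM2, SFTA1P, PSAT1 and ASNS on the FAT1 side, and most interferon-stimulated genes, TMSB4X and FGFBP1 between.

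The control populations also differed from each other. GFP against HcRed gave 1201 genes of 11134 (10.8%), 660 higher and 541 lower, and FAT1 against HcRed gave 1504 of 11294 (13.3%), 773 higher and 731 lower. Library totals in place of TMM factors turned the share of higher genes from 51.4% to 30.4% in FAT1 against HcRed and from 55.0% to 43.2% in GFP against HcRed. HcRed cells carried an overexpression vector and GFP cells a Cas9 plasmid, so these differences, too, cannot be told apart from how each population was made.

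**Figure D4:**
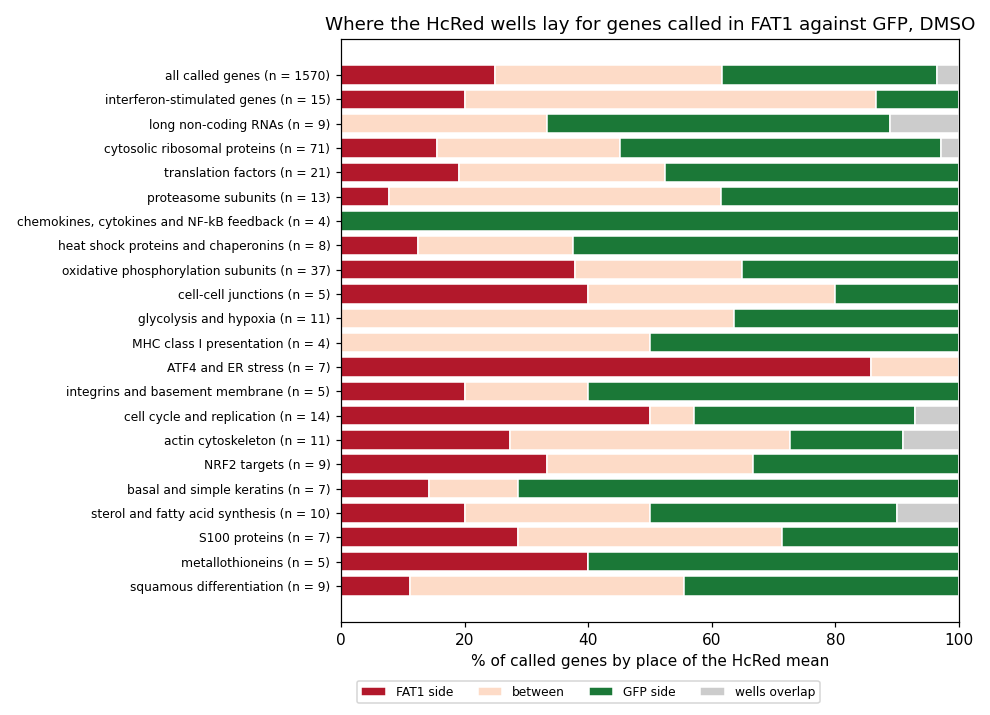
For genes called in FAT1 against GFP under DMSO, the percentage (x axis) whose mean over the 3 HcRed wells lay on the FAT1 side, between, or on the GFP side of the wells of both groups, or whose wells overlapped, for all called genes and for lists with at least 4 (y axis, number of genes in brackets). Higher and lower genes are pooled within a list. For the ATF4 list HcRed lay on the FAT1 side in 6 of 7 genes. For keratins it lay on the GFP side in 5, all of them lower in FAT1 cells. It lay on the FAT1 side in 1 higher keratin and between in 1 other higher keratin.

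Differences were unevenly spread over the chromosomes, a pattern examined after the values were seen. Positions were known for 10841 of the tested genes (97.3%). The counts per arm stand against 6.49% higher and 7.62% lower over all genes tested. On 16p, 42 of 212 genes were higher and 1 lower in FAT1 cells, with a median log2 fold change of 0.47, and on 12p 33 of 153 were higher and 3 lower (median 0.38). On 4p, 37 of 125 were lower and 0 higher (median -0.58), on Xp 41 of 148 were lower and 1 higher (median -0.66), on 6p 91 of 335 were lower and 2 higher (median -0.51), on 10p 29 of 103 were lower and 0 higher (median -0.46) and on 2q 93 of 420 were lower and 2 higher (median -0.43). In the CSC, BaP and NNK wells the medians of these arms were 0.53 for 16p, 0.32 for 12p, -0.62 for 4p, -0.65 for Xp, -0.54 for 6p, -0.52 for 10p and -0.37 for 2q. DNA copy number was not measured here.

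The arms also differed in their medians against HcRed. The GFP against HcRed median was -0.66 on 16p, where FAT1 against HcRed gave -0.13. On 12p FAT1 against HcRed gave 0.37 and GFP against HcRed -0.01, and on 10p they gave -0.5 and 0.03. Many genes described above lie on arms with a median of 0.2 or more in size. Among the higher genes, PPL and RPS15A are on 16p, CCND2, PKP2 and LDHB on 12p, RPL26 on 17p (median 0.29), the IFIT genes and FAS on 10q (median 0.25), GALM, CRIM1 and EPCAM on 2p (median 0.21), TGFBI, TSLP and DUSP1 on 5q (median 0.2) and EIF3E on 8q (median 0.2). Among the lower genes, TMSB4X and EBP are on Xp, FGFBP1 and ATP5I on 4p, LINC00707, SFTA1P and IDI1 on 10p, TUBB, HSP90AB1, TAPBP, SERPINB1 and DST on 6p, ITGA6, ARPC2 and IL1RN on 2q, IGFL1 on 19q (median -0.33), MT2A, MT1E, MT1X, MT1G, NQO1 and HERPUD1 on 16q (median -0.25) and CSTA on 3q (median -0.24). Others went against their arm: FN1 on 2q, PSMB9 on 6p, TIMP1 on Xp and IFI27 on 14q (median -0.22) were higher, and COL17A1 on 10q and TMSB10 and MTHFD2 on 2p were lower. The part of the arm-wide shift in these values was not tested. Near FAT1 itself, 19 other genes were tested within 5 Mb, and their median was 0.32. Among these 0 were higher and 2 lower, against 6.49% and 7.62% over all genes tested.

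**Figure D5:**
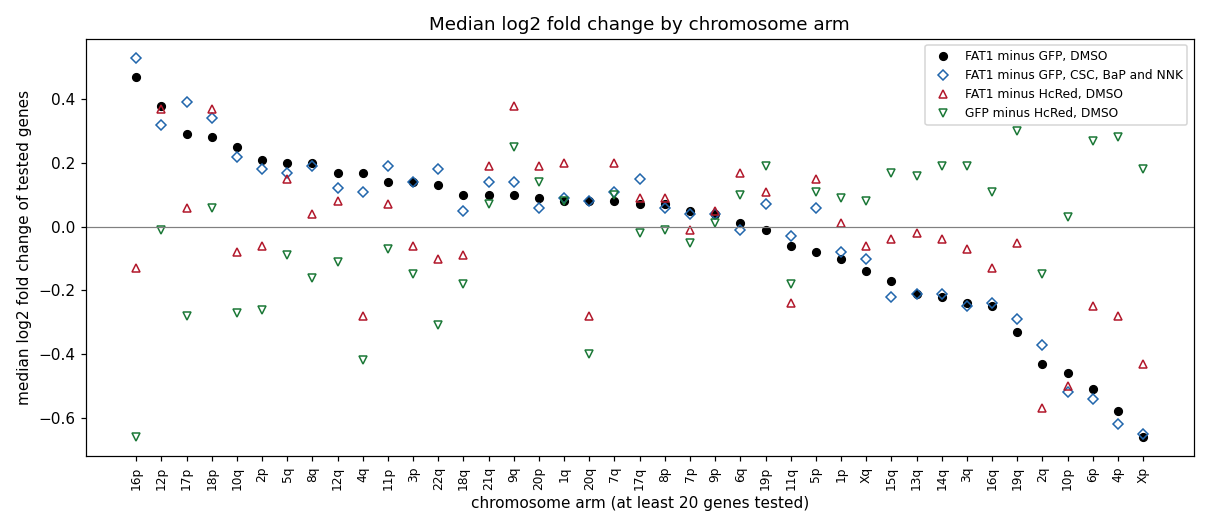
Median log2 fold change of the tested genes on each chromosome arm with at least 20 genes (x axis, ordered by the DMSO value) for FAT1 minus GFP under DMSO, the same under CSC, BaP and NNK, FAT1 minus HcRed and GFP minus HcRed (y axis, log2). The FAT1 minus GFP medians ran from 0.47 on 16p to -0.66 on Xp under DMSO, and the medians of the other chemicals lay close to them.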

How the data were processed

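Wells of AALE cells were profiled by 3′DGE (SCRB-seq). The authors deposited raw UMI counts per gene symbol, not normalized. Per the study's methods, reads had been placed with BWA 0.7.10 on RefSeq transcripts of hg19 and each UMI counted once for its gene, so reads of near-identical copies are uncertain. Counts were scaled with edgeR 4.0.16 TMM factors over the full library totals. FAT1 and GFP wells were compared with limma 3.58.1 and voom weights in R 4.3.3, on genes with a mean count over 1, with Benjamini-Hochberg adjustment and a threshold of 0.05. Tests were two-sided and each fit held only the compared groups. In the CSC, BaP and NNK fit, chemical was a covariate. The prior degrees of freedom were 89.4 in the DMSO fit with 6 wells, so small p-values rest largely on variance shared between genes. Levels are TMM CPM scaled over 42 wells: 24 under DMSO and 18 of FAT1 and GFP cells under the other chemicals. No pair of replicate wells matched closely enough to be a repeat deposit of 1 library (chi-square per degree of freedom of 1.17 or more), so none was merged, which does not show that the wells are independent.

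Depth limited precision. Intervals on counts are exact and cover counting error only. Gene positions came from a GENCODE annotation of GRCh37, in which 93.7% of symbols matched, and promoters from RefSeq. Genes named were FAT1, the 8 higher and 8 lower genes of largest change and the 5 of smallest p in each direction, among genes with separated wells and a mean count of at least 20, and up to 4 passing genes per list. The members and gene lists were chosen with earlier results of these data known. Alternatives were other scalings, filters and tools (DESeq2 1.42.0, edgeR quasi-likelihood), left-out wells, a replicate block and a fit over all DMSO wells. Thinning every well to the smallest library was added after the data were seen. The fits were tested on simulated counts.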

Additional observations from a re-analysis of the deposited data

Results flagged for a closer look

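The FAT1 minus GFP difference under DMSO was set against its mean under CSC, BaP and NNK in 1 limma fit of 24 wells and 11164 genes, and 2 genes passed, with 678 at an unadjusted p under 0.05. MALAT1, a nuclear long non-coding RNA, differed by 0.29 on the log2 scale (SE 0.045, adjusted p = 0.000197, limma), its mean under DMSO being 24395 TMM CPM in FAT1 wells and 22041 in GFP wells. The MALAT1 levels of the 2 populations overlapped under DMSO. FTL, the ferritin light chain, differed by 0.25 (SE 0.051, adjusted p = 0.0351, limma). FTL was at 4667, 4412 and 4773 TMM CPM in FAT1 wells and 3831, 3468 and 3852 in GFP wells under DMSO, while under BaP the means were 8892 and 9006. Across the 3 other chemicals the FTL log2 fold change was 0.05 and did not pass.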

How the results depend on the processing

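Among the count results, 247 of 258 stayed within 1.5 times. DESeq2 called 856 genes (408 higher, 448 lower) in FAT1 against GFP under DMSO, 842 (500 and 342) in FAT1 against HcRed and 659 (401 and 258) in GFP against HcRed, and library totals gave 486 higher and 1115 lower genes in FAT1 against HcRed. The cause was not tested. Leaving out 1 well gave 1184 to 1307 genes in FAT1 against GFP under DMSO and 2833 to 2972 in the other wells. The edgeR quasi-likelihood test called 1662 genes and thinning 1373. Same-numbered wells deviated with correlations of 0.01, 0.02 and 0.01, too low to pair them, although each well correlated best with its own number. With the replicate block 1700 genes were called. The fit shrinks variance strongly, and low-count genes such as FAT1, with at most 14 counts in these wells, have wide errors. Filters change which members of a list are tested.

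Named genes kept direction and side of the threshold in 5301 of 5422 cases, and 4 reversed, none past the threshold in the reversed fit. In the CSC, BaP and NNK wells FTL went to -0.03 with library totals and 0 leaving out NNK, and SLC39A7 went to 0.02 leaving out CSC and ran from -0.39 to 0.04 on leaving out 1 well. Calls under DMSO that were lost on leaving out 1 well included COL17A1 without FAT1 replicate 3 (adjusted p = 0.0586, limma), IL1RN without FAT1 replicate 1 (0.0953), PSMB9 without GFP replicate 3 (0.0868), EPCAM without GFP replicate 2 (0.141), PKP2 without GFP replicate 1 (0.0722), TJP1 without FAT1 replicate 2 (0.172) or GFP replicate 1 (0.104), CRIM1 without FAT1 replicate 2 (0.163), GFP replicate 1 (0.129) or GFP replicate 2 (0.0687), TIMP1 without FAT1 replicate 2 (0.0746) or GFP replicate 1 (0.0842), and LAMB3 without FAT1 replicate 1 (0.0509), FAT1 replicate 2 (0.0614) or GFP replicate 2 (0.0793). TSLP, BIRC3, DUSP1, AREG and TGFBI lost theirs without 2 or more different wells. List medians moved by more than the spread between wells in 66 of 252 cases. With library totals they were -0.07 for cell-cell junctions, -0.27 for integrins, -0.08 for proteases, 0.05 for zinc transport, -0.49 for NRF2 targets, 0.18 for p53 targets, 1.03 for interferon-stimulated genes, -0.02 for chemokines, -0.31 for cell cycle, -0.04 for heat shock proteins, 0.23 for ribosomal proteins, 0 for translation factors, -0.07 for oxidative phosphorylation and 0 for proteasome subunits. With no filter they were -0.05 for junctions, -0.59 for keratins, -0.43 for squamous differentiation, -0.7 for S100 proteins, -0.14 for integrins, 0.05 for proteases, 1.03 for interferon-stimulated genes, 0.24 for chemokines, 0.06 for glycolysis and 0.38 for long non-coding RNAs. With a mean count over 10 they were -0.09 for junctions, -0.31 for keratins, -0.56 for squamous differentiation, -0.37 for integrins, -0.1 for proteases, -0.44 for metallothioneins, 0.33 for zinc transport, -0.3 for NRF2 targets, -0.1 for AHR targets, 0.32 for p53 targets, 1.98 for interferon-stimulated genes, 0.22 for immediate early genes, -0.25 for sterol synthesis and 0.63 for long non-coding RNAs. With the 10000 most variable genes they were -0.7 for S100 proteins, 0.7 for mesenchymal markers, 0.22 for proteases, -0.38 for actin, -0.48 for NRF2 targets, 0.1 for p53 targets, 1.18 for interferon-stimulated genes, 0.44 for chemokines, -0.28 for glycolysis, -0.56 for sterol synthesis, -0.34 for cell cycle, -0.17 for heat shock proteins, 0.42 for ribosomal proteins, 0.16 for translation factors, -0.17 for oxidative phosphorylation and 0.31 for proteasome subunits. With DESeq2 they were 0.14 for the FAT and Hippo list, -0.65 for squamous differentiation, 0.15 for zinc transport, 0.31 for p53 targets, 1.23 for interferon-stimulated genes and 0.03 for MHC class I. With edgeR they were 0.12 for the FAT and Hippo list, -0.05 for junctions, -0.66 for squamous differentiation, 0.29 for p53 targets, 1.21 for interferon-stimulated genes and 0.02 for MHC class I.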
